A study of Mus musculus with 24 samples.

Results

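The genes described here mark microglia, the resident macrophages of the brain, and the related macrophages and granulocytes of its borders and blood. The 42 genes were chosen by name, as microglial identity, lysosomal, perivascular macrophage and granulocyte genes. Of the 53465 genes listed per animal, 18425 had enough reads to be tested, and 37 of the 42 members were among them. The data are RNA-seq read counts from the brains of 12 mice, 6 CAST/EiJ and 6 WSB/EiJ, which are inbred strains derived from wild mice. The study's question was which genes are expressed unequally in strains with unlike infarct volumes in a model of stroke. No surgery, treatment, age or sex is named for these animals in the sources used here, so every group is described as brain of its strain only. Each animal had 32982569 to 46513232 reads in genes, and the strains did not differ in depth beyond the spread between animals (two-sided exact permutation p = 0.229).

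Microglia depend on the receptor Csf1r for survival and take their identity from the transcription factors Spi1 (PU.1), Irf8 and Sall1. They sense their surroundings through receptors such as Cx3cr1, P2ry6 and Trem2, the last of which signals through the adaptor Tyrobp. Engulfed material is digested in lysosomes by proteases such as Ctss and Lgmn. The receptors Mertk and Axl recognise dying cells through bridging proteins, among them Gas6. Mrc1, Cd163 and Lyve1 mark macrophages at vessels and meninges rather than microglia, and S100a8 and S100a9 mark neutrophils.

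Gene positions are those of GENCODE M21 on GRCm38. Levels are in CPM, the reads of a gene relative to the TMM-scaled total of its library. A gene was called when its adjusted p was under 0.05 in edgeR's quasi-likelihood test, with Benjamini-Hochberg adjustment over all 18425 genes, and all adjusted p values given here come from that test. Fold changes are CAST over WSB. In bulk tissue, fewer cells of a type and less RNA per cell cannot be told apart. A strain difference in how reads align or are counted cannot be told apart from one in expression either.

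The library of animal CAST_142 stood apart from all others for these genes. It was the lowest of the 6 CAST animals for 32 of the 37 tested members (86.5%), against 33% of all tested genes. Cx3cr1 was at 21.4 CPM in it and at 35.1 to 43.5 CPM in the other 5 CAST animals, and Csf1r was at 45.3 CPM against 70.6 to 83.9 CPM. In 30 of the 37 members CAST_142 held at most 75% of the median of the other 5, as did 18.8% of all tested genes. The same library held high levels of genes of cerebellar granule cells. Their 4 markers summed to 677 CPM in it, and to at most 23.3 CPM in the other CAST animals and 15.8 CPM in WSB, with Cbln1 and Neurod1 listed at 0 in every animal. The part of the tissue mixture in the low microglial levels was not tested. The library of WSB_100 stood apart in Sall1, at 74.8 CPM against at most 33.3 CPM in the other WSB animals. It was not apart in this gene alone. Gad1, a neuronal marker, was at 711 CPM in it and at most 418 CPM in the other WSB animals. Its oligodendrocyte markers summed to 2240 CPM, the lowest sum of the WSB animals. The part of the tissue mixture was not tested for this library either. Results that rest on either library are given with and without it.

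To separate a shift shared by the microglial genes from differences of single genes, a shared level was computed for each animal. It is the median, over 20 tested surface identity and immunoreceptor genes, of each gene's CPM relative to its geometric mean over animals. In the 5 CAST animals other than CAST_142 it was 94.2% to 102% of the WSB median, and in the 6 WSB animals 96.3% to 104%. These ranges overlap, and the strain difference (CAST minus WSB) was 0.0016 on the log2 scale, against SDs between animals of 0.050 (CAST, n = 5) and 0.052 (WSB, n = 6). CAST_142 was at 60.2% of the WSB median, and with it the difference was -0.12 and the SD of the 6 CAST animals 0.30. A lower shared level was thus measured in 1 CAST animal, and the other animals of both strains lay within a common range.

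**Figure D1:**
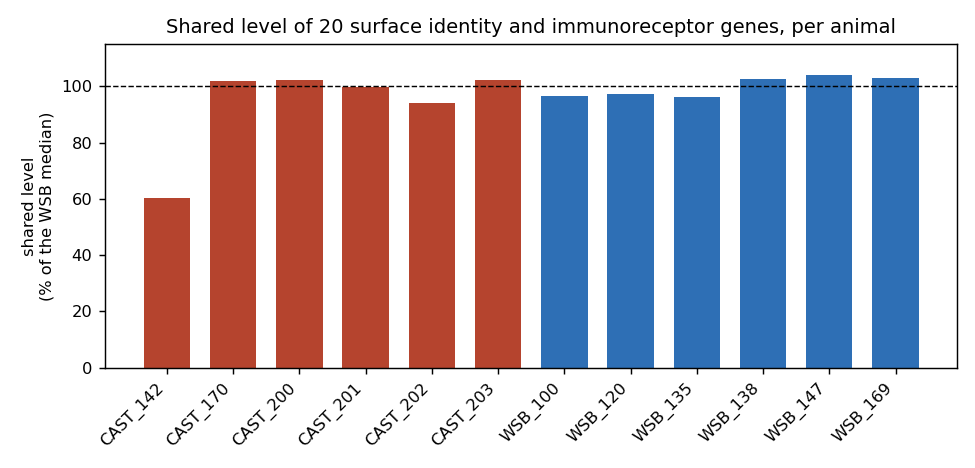
Shared level of 20 microglial surface identity and immunoreceptor genes in each of the 12 animals, as a percentage of the WSB median (dashed line; red, CAST; blue, WSB). CAST_142 is at 60.2%, and the other 11 animals are between 94.2% and 104%.

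The drop in CAST_142 was not equal over the roles of the members. The role names are loose, since the surface identity list also holds the secreted Olfml3 and the enzyme gene Hpgds. The 10 tested surface identity genes were at a median of 56.4% of the other CAST animals, between 49.9% for Hpgds and 72.2% for Tmem119. The 10 tested immunoreceptors and adaptors were at a median of 64.9%, with Fcer1g, the shared signalling chain of Fc receptors, at 95.7%. Lgmn, a lysosomal cysteine protease, was at 103%, and Axl and Gas6 were at 96.4% and 111%. These members did not share the low level of CAST_142. Among markers of other cell types, the medians were 102% for 9 neuronal, 114% for 8 oligodendrocyte, 104% for 8 mural and 89.0% for 8 endothelial genes, and 143% for 7 astrocyte genes. Erythroid markers were low in CAST_142 as well, with a median of 58.6% for 4 tested genes. The 3 tested genes of the lymphocyte list had a median of 47.2% but lay between 9.95% and 124%. One of them, Cd4, had 7570 reads over all animals, while Cd3d, Cd3e and Cd3g had 2, 5 and 8. Whether the reads of this list come from lymphocytes was not tested. The low level was thus not limited to microglial genes.

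**Figure D2:**
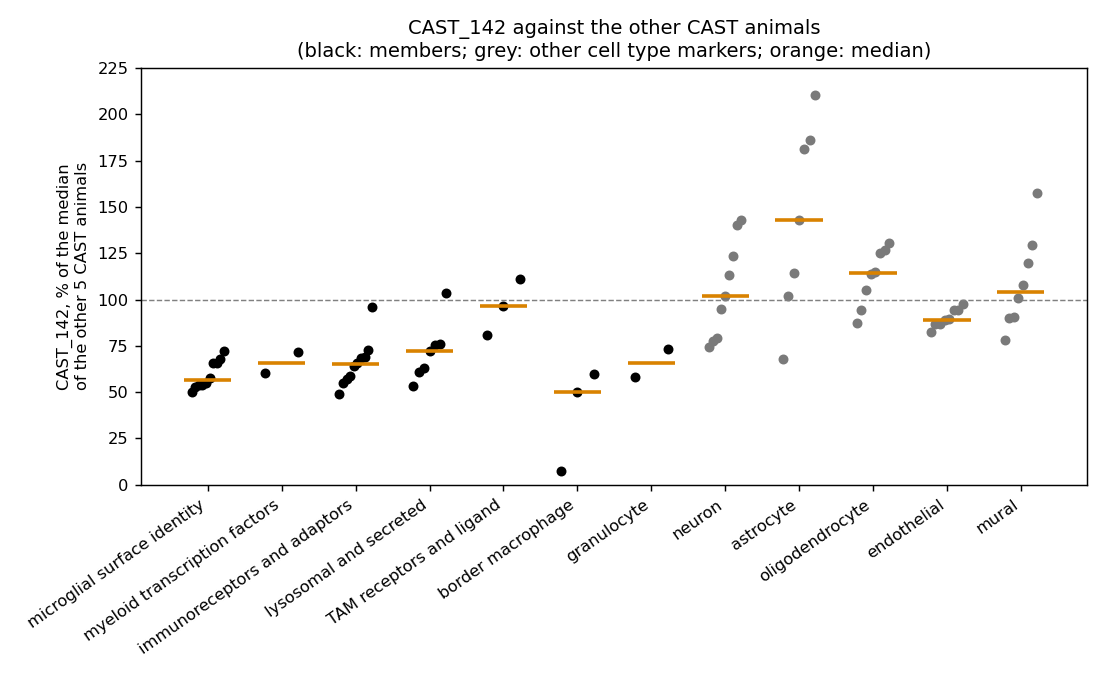
Level in CAST_142 as a percentage of the median of the other 5 CAST animals, for the tested members by role (black) and for tested markers of other brain cells (grey), with the median of each list in orange and 100% dashed. Surface identity genes have a median of 56.4%, and the TAM genes Axl and Gas6 lie near 100%.

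With all 12 animals, 9 of the 37 tested members were called higher and 11 lower in CAST, and 17 were not called. The called members were 54.1% of those tested, against 42.7% of all tested genes (24.3% higher against 21.5%, and 29.7% lower against 21.2%). The median log2 fold change of the members was -0.012 and that of all tested genes 0.0046. Without CAST_142, 14 members were called higher and 11 lower, against 23% and 23.9% of all tested genes (46.9% in either direction). Without CAST_142 and WSB_100 both counts were 12, against 23% and 23.6% (46.6% in either direction). For 4 members higher and 8 lower in CAST the strains had separate CPM ranges, against 27.1% of all tested genes. A call, separate ranges and a difference of at least 1.5-fold came together in 6 members and in 16.1% of all tested genes. The called members went in both directions.

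**Figure D3:**
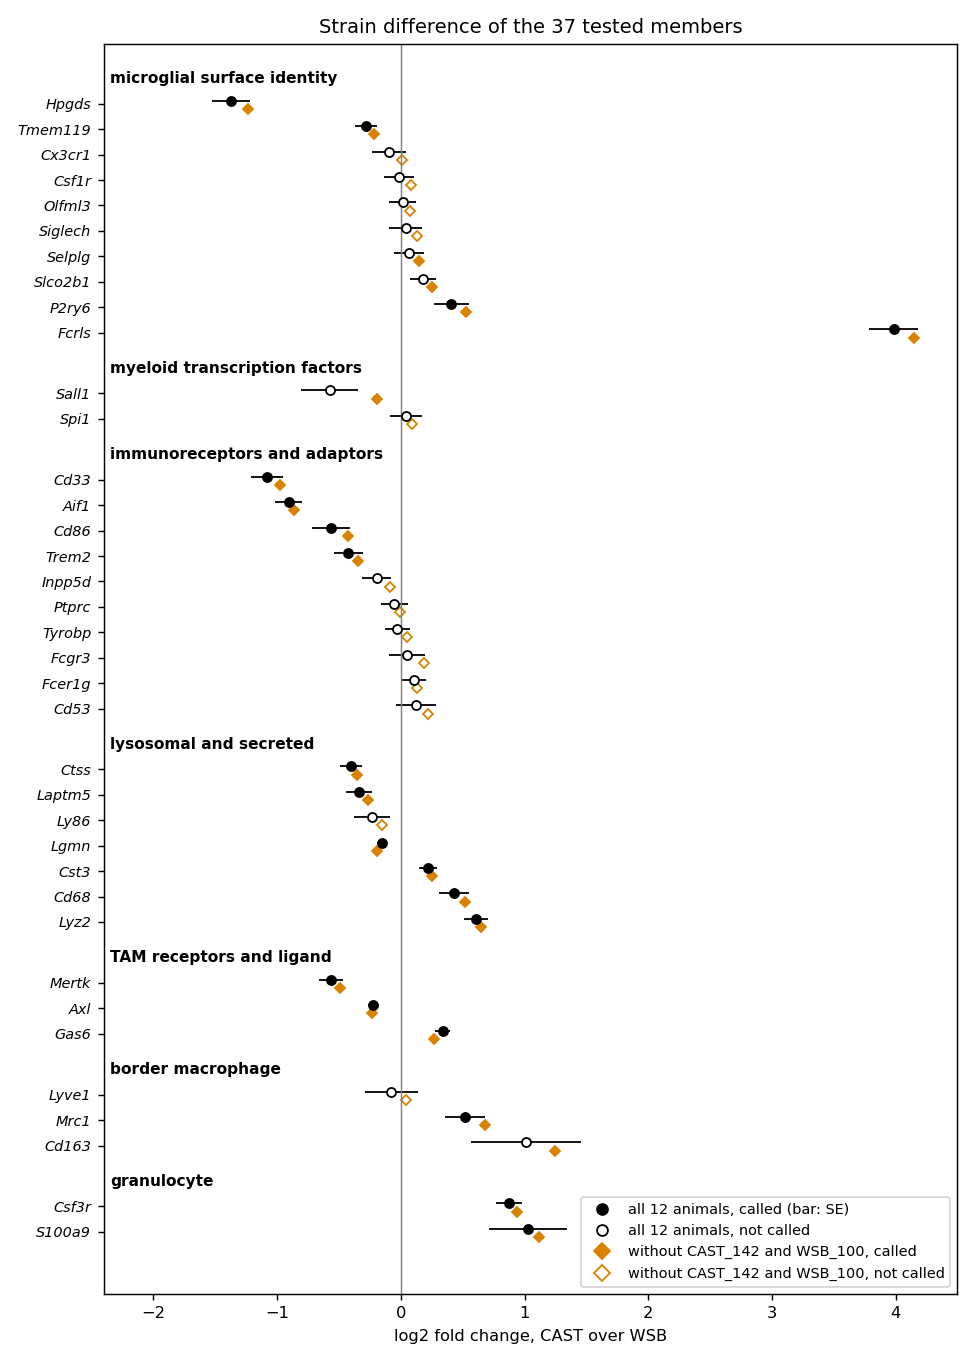
Log2 fold change (CAST over WSB) of the 37 tested members, grouped by role, with its SE over all 12 animals (circles) and without CAST_142 and WSB_100 (orange diamonds); filled symbols are called. Most surface identity genes lie near 0, while Fcrls is at 3.98 and Hpgds at -1.38.

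Each member was then tested per microglial read, with the libraries scaled to the shared level instead of to all genes. This scaling moved the median log2 fold change of all tested genes from 0.0046 to 0.15, since it raises every gene of CAST_142. Under it 9 members were higher and 5 lower, against 17.1% and 9.37% of all tested genes (26.5% in either direction). Without CAST_142 they were 13 and 11, against 20.7% and 22.2%. Without CAST_142 and WSB_100 the counts were 11 and 11, against 20.5% and 21.1%, and the median of all genes was -0.0027. With all animals, 14 members were called in the same direction under both scalings. Fcrls, Hpgds, Cd33, Aif1, Cd68, Lyz2, Mertk and Csf3r were called under both scalings and in each of the 22 and 14 alternatives tried for them. For the 20 genes that set this scaling, the test compares a gene with the median of its own list.

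Several surface and signalling genes of microglia were not called, among them Cx3cr1, Csf1r, Tyrobp and Spi1. Cx3cr1, the fractalkine receptor, was at 21.4 to 43.5 CPM in CAST (median 39.2) and 34.3 to 42.4 CPM in WSB (median 39.4), with a log2 fold change of -0.10 ± 0.13 (SE; adjusted p = 0.60). The strains overlapped over most of their range. Csf1r was at a median of 80.1 CPM in CAST and 73.8 CPM in WSB (adjusted p = 0.946), Tyrobp at 5.91 and 5.89 CPM (adjusted p = 0.850), and Spi1 at 2.92 and 2.77 CPM (adjusted p = 0.826). Siglech, a sialic acid-binding receptor, Olfml3, a secreted matrix protein, Selplg, a ligand of selectins, and the transporter gene Slco2b1 had log2 fold changes of 0.01 to 0.18 and were not called. Without CAST_142 and WSB_100, Selplg (0.15, adjusted p = 0.0305) and Slco2b1 (0.25, adjusted p = 0.0160) were called higher, and without CAST_142 alone Siglech (0.15, adjusted p = 0.0359) was as well. Only 42.6% of the Cx3cr1 body and 54.4% of the Slco2b1 body lie outside other genes, which limits what intronic reads in their counts hold. Of their exon bases, 98.0% (Cx3cr1) and 62.6% (Slco2b1) lie outside other genes, so the exon count of Slco2b1 is limited as well.

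Fcrls had by far the widest strain difference of the tested members. It encodes a scavenger receptor-like protein of the Fc receptor-like family that is a marker of microglia (chromosome 3, 87250758 to 87263738, minus strand, GRCm38). In CAST it was at 11.2 CPM in the lowest animal, 20.6 CPM at the median and 23.1 CPM in the highest, and in WSB at 0.839, 1.23 and 1.54 CPM. The lowest CAST animal, CAST_142, was still well above the highest WSB animal. The log2 fold change was 3.98 ± 0.20 (SE; adjusted p = 2.26e-09), or 15.8-fold, and it was 4.07 per microglial read. This rests on 4934 reads in CAST and 290 in WSB, and none of the 291 sampled 32-base words of its transcripts occurs in another gene.

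Hpgds, hematopoietic prostaglandin D synthase, differed in the other direction. It lies on chromosome 6 (65117293 to 65144908, minus strand). Its level was 2.101 CPM in the lowest CAST animal, 4.18 CPM at the median and 4.65 CPM in the highest, and 8.69, 10.47 and 10.98 CPM in WSB. The ranges were separate by a wide margin, with CAST_142 lowest. Its log2 fold change was -1.38 ± 0.15 (SE; adjusted p = 7.43e-06), so WSB was 2.59-fold higher. Tmem119, a membrane protein specific to microglia in brain, was at 11.3 to 17.7 CPM in CAST and 17.3 to 19.9 CPM in WSB (-0.28 ± 0.09, adjusted p = 0.0196). Its ranges overlapped in CAST_170, and per microglial read it was not called with all animals (adjusted p = 0.281) but was without CAST_142 and WSB_100 (adjusted p = 0.00980). P2ry6, a receptor for extracellular UDP that promotes phagocytosis, was higher in CAST at 2.62 to 5.05 CPM against 2.32 to 3.28 CPM in WSB (0.41 ± 0.14, adjusted p = 0.0353). Its ranges overlapped, and the call was lost without any 1 of 6 animals (adjusted p of 0.0510 to 0.0850). Without CAST_142 its log2 fold change was 0.50 (adjusted p = 0.00323), and without CAST_142 and WSB_100 it was 0.53 (adjusted p = 0.00314).

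The transcription factors were not called with all animals. Sall1, which maintains microglial identity and is also made in other neural cells, was at 18.9 to 27.4 CPM in CAST (median 26.1) and 26.4 to 74.8 CPM in WSB (median 30.6). The high value was WSB_100 alone, since the other 5 WSB animals were between 26.4 and 33.3 CPM. Its log2 fold change was -0.58 ± 0.23 (SE; adjusted p = 0.0592), and -0.26 without WSB_100 (adjusted p = 0.0420). It was also called without WSB_169 (-0.66, adjusted p = 0.0389). Irf8 is listed at 0.

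In the list of immunoreceptors and adaptors, 4 of 10 tested genes (40%) were called lower and none higher, against 21.2% and 21.5% of all tested genes. Of these 4, Aif1 encodes neither a receptor nor an adaptor. Cd33, an inhibitory sialic acid-binding receptor (chromosome 7, 43524216 to 43544428, minus strand), was at 3.19, 5.62 and 5.87 CPM in CAST (lowest, median, highest) and at 10.3, 10.9 and 12.6 CPM in WSB. No CAST animal came near the WSB range. The log2 fold change was -1.08 ± 0.13 (SE; adjusted p = 1.39e-05). Aif1, which encodes the actin-binding protein Iba1 used to stain microglia (chromosome 17, 35170991 to 35176068, minus strand), was at 3.03, 4.14 and 4.83 CPM in CAST and 6.73, 7.41 and 8.69 CPM in WSB. Its ranges were separate too (-0.91 ± 0.11, adjusted p = 1.45e-05). The Iba1 gene was thus lower in CAST also in the 5 animals whose shared level lay in the WSB range or close to it.

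Trem2, a receptor for lipids and lipoproteins, was at 3.14 to 5.53 CPM in CAST and 5.64 to 6.73 CPM in WSB (-0.42 ± 0.12, adjusted p = 0.0110). The ranges were separate by a small gap, and per microglial read the gene was not called with all animals (adjusted p = 0.0723) but was without CAST_142 and WSB_100 (adjusted p = 0.00725). Its adaptor Tyrobp was not called. Cd86, a costimulatory ligand, was at 0.700 to 1.33 CPM in CAST and 1.29 to 1.79 CPM in WSB (-0.56 ± 0.15, adjusted p = 0.00810), with ranges that just overlapped. Fcgr3, an activating Fc receptor, Fcer1g, the phosphatase gene Inpp5d, the tetraspanin gene Cd53 and Ptprc, the leukocyte common antigen CD45, had log2 fold changes of -0.20 to 0.12 and were not called. Cd53 was called higher without CAST_142 (0.24, adjusted p = 0.0469). Fcgr3 shares 14.9% of its sampled 32-base words with other genes.

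**Figure D4:**
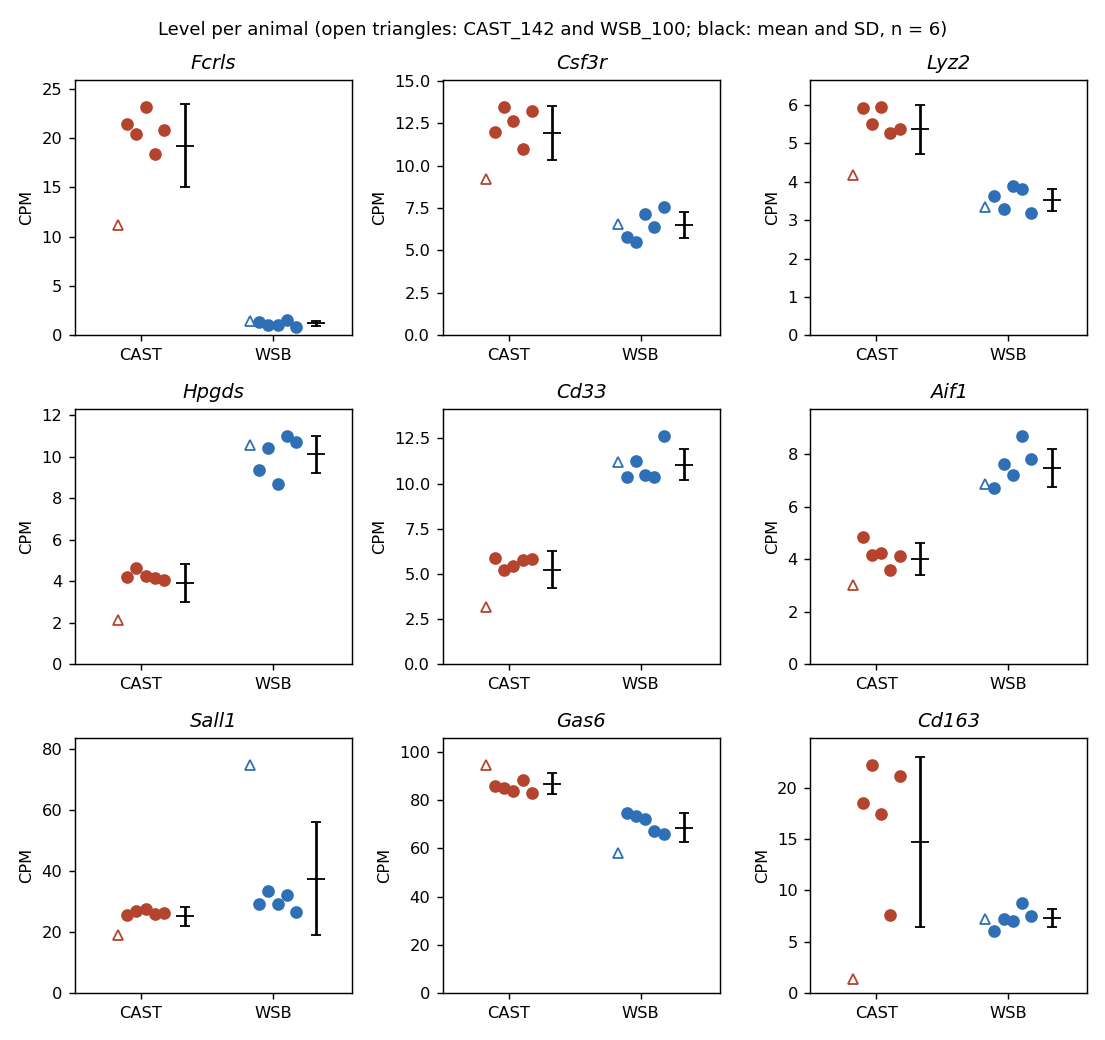
CPM per animal of the 6 members with called, separate and at least 1.5-fold differences, and of Sall1, Gas6 and Cd163, the most abundant tested members of 3 other roles. Points are animals, open triangles are CAST_142 and WSB_100, and black marks are the mean and SD (n = 6). Fcrls, Csf3r and Lyz2 are higher in all CAST animals, and Hpgds, Cd33 and Aif1 in all WSB animals. Sall1 has a library far from the rest, and Cd163 is lower in CAST_142 and CAST_202 than in the other CAST animals.

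Lysosomal and secreted products split, with 3 of 7 higher and 3 lower in CAST (42.9% each), against 21.5% and 21.2% of all tested genes. Per microglial read with all animals 3 were higher and 0 lower, and without CAST_142 and WSB_100 the counts were again 3 and 3. Ctss, a cysteine protease of antigen-presenting cells, was at 16.9 to 26.6 CPM in CAST and 27.8 to 32.8 CPM in WSB (-0.41 ± 0.09, adjusted p = 0.00225). Laptm5, a lysosomal membrane protein of leukocytes, was at 11.4 to 20.003 CPM and 20.6 to 23.0 CPM (-0.34 ± 0.11, adjusted p = 0.0199). In both genes every WSB animal was above every CAST animal. Lgmn fell slightly, at 85.4 to 89.3 CPM in CAST and 87.4 to 103 CPM in WSB (-0.15 ± 0.04, adjusted p = 0.00643), and its ranges overlapped in WSB_100. Per microglial read with all animals Ctss (adjusted p = 0.0782), Laptm5 (adjusted p = 0.117) and Lgmn (adjusted p = 0.9996) were not called.

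Lyz2, the lysozyme of macrophages and neutrophils (chromosome 10, 117277331 to 117282321, minus strand), was at 4.18, 5.44 and 5.94 CPM in CAST and 3.19, 3.49 and 3.89 CPM in WSB. All CAST animals were above all WSB animals, and the log2 fold change was 0.61 ± 0.10 (SE; adjusted p = 0.000183). It shares 31.0% of its sampled 32-base words with other genes, so its count is uncertain. Cd68, a lysosomal glycoprotein of phagocytes, was at 5.79 to 6.89 CPM in 5 CAST animals and 3.98 CPM in CAST_142, against 4.15 to 5.14 CPM in WSB (0.43 ± 0.12, adjusted p = 0.0114). The 5 animals were above all WSB animals, and CAST_142 was below them all. Cst3, the protease inhibitor cystatin C, was at 519 to 695 CPM in CAST and 527 to 611 CPM in WSB (0.22 ± 0.07, adjusted p = 0.0273). Its call was lost without any 1 of 8 animals other than CAST_142 (adjusted p of 0.0504 to 0.0614). Without CAST_142 the log2 fold change of Cst3 was 0.27 (adjusted p = 0.000244), and without CAST_142 and WSB_100 it was 0.26 (adjusted p = 0.000475). Ly86, a partner of a Toll-like receptor homologue, was not called. Per kilobase of exon, Cst3 had the highest level of the members, at 519 CPM per kilobase in CAST, and Lgmn and Gas6 followed at 37.6 and 34.1, although counts may include intronic reads.

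Gas6 and its receptors Mertk and Axl were called, the ligand higher and both receptors lower, with separate ranges for each. The remaining Gas6 receptor, Tyro3, from the list of further phagocytic genes and named after its values were seen, was not called. It was at 188 to 259 CPM in CAST and 204 to 281 CPM in WSB, which overlap (-0.03 ± 0.09, adjusted p = 0.845). The ligand Gas6 (chromosome 8, 13465374 to 13494490, minus strand) was at 83.0, 85.6 and 94.6 CPM in CAST and 58.2, 69.7 and 74.7 CPM in WSB. Its highest CAST animal was CAST_142, and its log2 fold change was 0.34 ± 0.06 (SE; adjusted p = 0.000389). Only 63.5% of its exon bases lie outside other genes. Mertk was at 33.3 to 48.8 CPM in CAST and 51.3 to 64.9 CPM in WSB (-0.56 ± 0.09, adjusted p = 0.000265), and Axl at 42.9 to 49.2 CPM and 51.3 to 59.1 CPM (-0.22 ± 0.05, adjusted p = 0.00204). Mertk and Axl were thus lower and Gas6 higher in every CAST animal than in any WSB animal. Per microglial read with all animals Axl was not called (adjusted p = 0.727), and it was without CAST_142 and WSB_100 (adjusted p = 0.0168). Other brain cells, astrocytes among them, also make these genes.

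Of the border macrophage genes, Mrc1, the mannose receptor, was at 5.58 to 7.09 CPM in 5 CAST animals and 3.14 CPM in CAST_142, against 3.26 to 4.56 CPM in WSB (0.52 ± 0.16, adjusted p = 0.0214). With all animals the call was lost without CAST_170 (adjusted p = 0.0508) or WSB_135 (adjusted p = 0.0505). Without CAST_142 and WSB_100 its log2 fold change was 0.68 (adjusted p = 8.74e-05). Cd163, the scavenger receptor for hemoglobin bound to haptoglobin (chromosome 6, 124304656 to 124330527, plus strand), was at 1.40 CPM in CAST_142, 7.63 CPM in CAST_202 and 17.5 to 22.2 CPM in the other 4 CAST animals, against 6.05 to 8.71 CPM in WSB. CAST_142 held 7.58% of the median of the other CAST animals, the lowest share of any tested member. Cd163 was not called with all animals (1.02 ± 0.44, adjusted p = 0.0832) and was called without CAST_142 (1.25, adjusted p = 0.000608). Lyve1, a hyaluronan receptor, was at 0.587 to 1.06 CPM in CAST and 0.634 to 1.20 CPM in WSB and was not called (adjusted p = 0.797).

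Of the 3 genes listed by name as granulocyte genes, Csf3r and S100a9 were called higher in CAST and S100a8 was not tested. Csf3r, the receptor for granulocyte colony-stimulating factor (chromosome 4, 126024550 to 126044440, plus strand), was at 9.22, 12.3 and 13.4 CPM in CAST and 5.51, 6.47 and 7.53 CPM in WSB. Every CAST animal was above every WSB animal, with a log2 fold change of 0.88 ± 0.11 (SE; adjusted p = 1.38e-05). It shares 24.4% of its sampled 32-base words with other genes. Csf3r had 3060 reads in CAST and 1546 in WSB, far more than S100a9 or S100a8. Whether the Csf3r reads come from granulocytes, microglia or other cells was not tested. S100a9, a calcium-binding protein of neutrophils, was at 0.196 to 0.486 CPM and 0.0699 to 0.287 CPM (1.03 ± 0.31, adjusted p = 0.0174), from 95 and 43 reads. S100a8, its partner, had 69 reads in CAST and 30 in WSB. None of 12 other monocyte and granulocyte markers was abundant enough to be tested, and their sum was 1.06 to 1.66 CPM in CAST and 0.607 to 1.11 CPM in WSB. Not all were higher in CAST: Ngp, a neutrophil granule protein gene named after its values were seen, had 44 reads in CAST and 48 in WSB. Most of the difference in the sum came from Lcn2 and Ly6c2, also named after their values were seen. Lcn2 had 7 to 26 reads per CAST animal and 3 to 4 per WSB animal, and Ly6c2 had 5 to 11 and 0 to 2. Ly6c2 shares 36.9% of its sampled 32-base words with other genes. The rest of these markers had few reads and went in both directions. Of 4 tested erythroid genes 2 were also higher, as were 21.5% of all tested genes. The erythroid sums were 44.1 to 179 CPM in CAST and 32.7 to 87.5 CPM in WSB. The part of blood in these differences was not tested.

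The promoters of 4 members are shown because these genes had the smallest adjusted p of the called, separate and at least 1.5-fold differences, 2 in each direction. They are the RefSeq windows from 250 bases before to 50 bases after the annotated start (GRCm38.p6), 5′ to 3′ on the gene's strand. Capitals mark GAGGAA, the core of the PU box bound by PU.1, searched on both strands (TTCCTC). Fcrls is at chr3:87263475-87263774 (minus strand), Csf3r at chr4:126024409-126024708 (plus), Hpgds at chr6:65144681-65144980 (minus) and Cd33 at chr7:43533122-43533421 (minus). The Cd33 window is wholly inside the GENCODE gene body, and those of Fcrls, Csf3r and Hpgds are partly inside theirs.
Fcrls: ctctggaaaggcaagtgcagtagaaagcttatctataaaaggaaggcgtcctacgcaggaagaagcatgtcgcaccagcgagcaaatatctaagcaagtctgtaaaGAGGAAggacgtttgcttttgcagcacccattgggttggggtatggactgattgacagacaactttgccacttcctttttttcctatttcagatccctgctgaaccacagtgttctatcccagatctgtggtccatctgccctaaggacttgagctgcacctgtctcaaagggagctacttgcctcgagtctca
Csf3r: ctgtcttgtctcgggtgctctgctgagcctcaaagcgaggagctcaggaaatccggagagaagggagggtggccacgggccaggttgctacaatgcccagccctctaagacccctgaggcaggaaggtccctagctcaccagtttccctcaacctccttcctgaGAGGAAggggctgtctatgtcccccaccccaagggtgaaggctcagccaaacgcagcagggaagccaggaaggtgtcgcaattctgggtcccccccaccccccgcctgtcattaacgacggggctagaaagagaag
Hpgds: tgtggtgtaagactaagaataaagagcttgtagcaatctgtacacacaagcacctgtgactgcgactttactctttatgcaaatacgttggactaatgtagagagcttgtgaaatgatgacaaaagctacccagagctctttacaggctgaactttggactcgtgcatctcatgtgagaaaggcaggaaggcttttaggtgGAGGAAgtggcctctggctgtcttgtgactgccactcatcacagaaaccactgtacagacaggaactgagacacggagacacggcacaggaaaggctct
Cd33: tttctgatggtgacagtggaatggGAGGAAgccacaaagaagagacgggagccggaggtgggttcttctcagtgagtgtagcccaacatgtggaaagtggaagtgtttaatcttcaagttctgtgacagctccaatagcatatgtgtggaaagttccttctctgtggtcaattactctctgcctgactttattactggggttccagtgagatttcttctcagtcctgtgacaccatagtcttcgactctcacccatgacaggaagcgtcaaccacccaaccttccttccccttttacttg
Each of the 4 windows holds the motif once, beginning 144, 86, 49 and 226 bases before the RefSeq start. In all 4 the marked letters lie inside the GENCODE gene body. Of all 32851 RefSeq windows 28.3% hold it, and of 41 windows of 33 members 24 do (58.5%). The motif thus occurs in windows of genes higher in CAST and of genes lower in CAST. These are reference letters, and the sequences of CAST/EiJ and WSB/EiJ were not used here.

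The members without any reads say nothing of expression. Gpr34, P2ry13, Irf8 and Itgam are listed at 0 reads in all 12 animals. In the annotation Gpr34 lies wholly inside Cask, P2ry13 inside Med12l and Irf8 inside Gm20388, and 0.077% of the Itgam body lies outside Gm49368. P2ry12, a microglial marker on another list, lies inside Med12l and is listed at 0 as well.

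Of 15 tested further microglial markers 3 were higher and 3 lower, together 40% against 42.7% of all tested genes. Subunits of complement C1q were among them. C1qa was lower in CAST at 12.2 to 18.8 CPM against 21.4 to 24.6 CPM in WSB (-0.53 ± 0.09, adjusted p = 0.000219). C1qc was higher at 8.61 to 13.4 CPM against 7.03 to 8.60 CPM (0.65 ± 0.10, adjusted p = 0.000160). C1qb, named after its values were seen, was lower (-0.40, adjusted p = 0.00669). The 3 chains of this hexameric protein therefore differed between the strains in unlike directions, with ranges that were separate for C1qa and nearly met for C1qc.

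Of 11 tested genes of Trem2 signalling and activated microglia, Cst7, an inhibitor of lysosomal proteases, was lower (-0.82, adjusted p = 0.00381) and Cd9, a tetraspanin, higher (0.30, adjusted p = 0.0188). Together they were 18.2% of this list, against 42.7% of all tested genes. Apoe, a Trem2 ligand, was at 967 to 1200 CPM in CAST and 1042 to 1301 CPM in WSB (adjusted p = 0.249). Of 18 further lysosomal genes 2 were higher and 7 lower, together 50% against 42.7% of all tested genes. Per microglial read with all animals 1 was higher and 1 lower, and without CAST_142 and WSB_100 the counts were 2 and 6. Tpp1, a peptidase, was at 38.0 to 44.96 CPM in CAST and 65.7 to 74.5 CPM in WSB (-0.77 ± 0.05, adjusted p = 1.45e-08), and Ctsc, an activator of granule proteases, at 7.55 to 9.07 and 4.33 to 5.97 CPM (0.72 ± 0.09, adjusted p = 1.31e-05). Both pairs of ranges were separate.

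Ligands of the member receptors were called at 2 of 7, both higher (28.6%, against 42.7% of all tested genes in either direction). Pros1, protein S, which bridges dying cells to Mertk, had a log2 fold change of 0.26 (adjusted p = 0.0136), and Tgfb1, a cytokine that maintains microglial identity, one of 0.23 (adjusted p = 0.0298). The Csf1r ligands Csf1 and Il34 and the Cx3cr1 ligand Cx3cl1 were not called (adjusted p of 0.207 to 0.429). Of 10 tested further receptors and bridging proteins of phagocytosis, the integrin subunit gene Itgb5 was higher (0.39, adjusted p = 0.00139) and the bridging protein gene Mfge8 lower (-0.38, adjusted p = 0.0148). These were 20% of that list, against 42.7% of all tested genes. Of 10 tested further border macrophage genes 1 was higher and 3 lower, together 40% against 42.7% of all tested genes. Ms4a7, a membrane protein of these macrophages, was at 0 to 0.142 CPM in CAST and 0.333 to 0.652 CPM in WSB (-3.29 ± 0.44, adjusted p = 3.51e-05), from 13 and 125 reads. Cbr2, a carbonyl reductase, was lower as well (-1.54, adjusted p = 0.000366), while Mrc1 was higher. Of 12 lymphocyte markers 3 were tested and none was called.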

How the data were processed

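Each of the 12 animals had been sequenced on lanes 5 and 6, which gives 24 files of whole-number read counts per gene, as deposited by the authors. Tools listed in the submitters' processing notes are TopHat2 2.1.1, cutadapt, HTSeq and DESeq2. The genome build, the annotation and the strandedness were not given in the sources used here. Hence reads of overlapping or antisense genes cannot be told apart. The lanes of an animal were summed, since they hold 1 library. HTSeq's 5 counters, 32.0% to 37.1% of alignments, were left out. The counter of alignments that are not unique held 15.6% to 16.1% in CAST and 17.0% to 17.5% in WSB. Whether reads of both strains align equally well was not tested. Identifiers were matched to GENCODE M21 (GRCm38) for 53274 of 53465 genes.

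The test was that of edgeR 4.0.16, run in R 4.3.3 (TMM, default expression filter, robust quasi-likelihood test, 6 animals against 6). The SE is the log2 fold change divided by the square root of F. A second fit scaled libraries by the median of ratios over 20 members. Shared sequence is the share of sampled 32-base words of a gene's transcripts found in another gene's. The edgeR p-values set the strain difference against the spread between the animals as labelled, which edgeR estimates with the help of all genes. On simulated counts with 18267 genes of this comparison, the test called 45.5% of 1.5-fold, 80.3% of 2-fold and 96.8% of 4-fold changes, with 3 false calls. The changes were set in 66, 71 and 63 genes, drawn independently and with no library shifted as CAST_142 was. In the real counts 42.7% of the genes were called, so these simulated figures need not hold for them.

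The members and lists were chosen with earlier results of these data known. Full values were given for members called, with separate CPM ranges and at least 1.5-fold, or the most abundant tested member of a role without one, and at most 2 called genes of each other list were named. Alternatives were other scalings, filters, DESeq2 1.42.0, single lanes and left-out animals.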

Additional observations from a re-analysis of the deposited data

Results flagged for a closer look

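Within each strain, the lowest and highest CPM of each tested member was compared with its nearest neighbour by Dixon's test. Of 74 groups of 6 animals, 17 had such an animal, where about 1 in 20 is given by chance, and in 14 of the 17 it was CAST_142 at the low end. The members share this library, so the 14 are not independent.

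In the surface identity list, CAST_142 was set apart for Csf1r (45.3 CPM), Siglech (5.44 CPM, nearest 9.80 CPM), Olfml3 (13.4 CPM), Selplg (11.6 CPM) and Hpgds (2.101 CPM). The same held for the transcription factor genes Sall1 (18.9 CPM) and Spi1 (1.85 CPM). Among immunoreceptors and adaptors it held for Tyrobp (4.11 CPM), Cd33 (3.19 CPM), Cd53 (2.76 CPM) and Ptprc (2.67 CPM). The lysosomal and secreted products Laptm5 (11.4 CPM), Cst3 (519 CPM) and Ly86 (3.19 CPM) completed them.

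The other 3 animals so marked were WSB_100 for Sall1 (74.8 CPM, nearest 33.3 CPM), WSB_147 for Csf1r (80.02 CPM, nearest 74.97 CPM) and CAST_202 for Fcer1g (3.24 CPM, nearest 2.87 CPM).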

How the results depend on the processing

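Of 810 values of single members under the alternatives, 754 kept their direction and their side of the threshold, 18 lost a call, 12 gained one and 26 changed sign, all 26 in members that were not called. Leaving out single animals gave 6 to 14 members higher, 11 to 12 lower and 7313 to 8726 of all genes called. The 14 higher came without CAST_142. The median log2 fold change of the 20 surface and immunoreceptor members was then -0.046 to 0.071. Per microglial read the same gave 8 to 13 higher and 4 to 11 lower, with the 11 again without CAST_142. Lower members per microglial read numbered 8 when scaled on surface identity genes only and 11 without CAST_142 and WSB_100. Over left-out animals, log2 fold changes were -0.15 to 0.016 for Cx3cr1, -0.055 to 0.092 for Csf1r, -0.022 to 0.10 for Olfml3, -0.0075 to 0.13 for Spi1, -0.063 to 0.049 for Tyrobp, -0.010 to 0.15 for Fcgr3, -0.087 to 0.024 for Ptprc and -0.16 to 0.022 for Lyve1. Without CAST_142 and WSB_100 they were 0.0079 for Cx3cr1, 0.083 for Csf1r, 0.048 for Tyrobp and 0.041 for Lyve1. Lane 6 alone gave -0.018 for Siglech, -0.054 for Spi1 and 0.072 for Tyrobp, and lane 5 alone -0.080 for Fcgr3 and 0.011 for Ptprc. The cause was not tested. With DESeq2 Sall1 was called (adjusted p = 0.0332), on lane 5 alone Cd86 was not (adjusted p = 0.0659), and on lane 6 alone P2ry6 was not (adjusted p = 0.0723). No paired analysis was possible because the animal numbers are not shared between the strains. Depth limits S100a8, S100a9 and Ms4a7.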
